A study of Mus musculus with 11 samples.

Results

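The genes described here are the G1 cyclins, their kinases and the inhibitors of these kinases, chosen by symbol from the merged table of counts per gene. They comprise 10 of its 22600 genes, and all 10 passed the filter on low counts, which kept 16496 genes. They are the D cyclins Ccnd1, Ccnd2 and Ccnd3, the E cyclins Ccne1 and Ccne2, the kinases Cdk4 and Cdk6, and the CIP/KIP inhibitors Cdkn1a (p21), Cdkn1b (p27) and Cdkn1c (p57). RNA of whole distal tibiae from 4 Control and 7 BMAd-DTA mice, 24 weeks old by the labels, of strain C57BL6/SJL and fed ad libitum, was sequenced with strand information, as 1 library per mouse. The labels name the Control genotype BMAd-WT and give no sex, and every library had the Xist and Y-linked counts of female mice. According to the study's methods, every mouse carried both Osterix-FLPo and FAC, an Adipoq-Cre that becomes active only after FLPo recombination, so the controls carried them as well. BMAd-DTA mice had in addition ROSA-DTA, in which Cre removes a stop cassette and diphtheria toxin A is made, a toxin that kills the cell. The Cre sits at the endogenous Adipoq gene, adiponectin in blood is low in mice with this Cre, recombination is incomplete in young mice, and some stromal precursors of marrow adipocytes are recombined too. The question asked of the genes was which of them went against the general decrease of cell cycle transcripts in BMAd-DTA tibiae.

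A cell commits to dividing in G1. D cyclins, induced by growth factors, bind CDK4 or CDK6, and the complex begins to phosphorylate the retinoblastoma protein. This releases E2F transcription factors, which switch on the E cyclins and the genes of DNA replication, and cyclin E with CDK2 completes the step into S phase. CIP/KIP proteins block cyclin E with CDK2, while they also help D cyclins to assemble with their kinases. In marrow, cyclin D3 is used above all by erythroid and lymphoid precursors, CDK6 is the prominent D cyclin kinase of blood progenitors, and p57 keeps stem cells quiescent.

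Total counts per library were between 16969529 and 18637663, and a member had between 178 and 13927 counts in a library, and the counting error of a member's mean count came to 0.905% (Ccnd3) to 6.48% (Cdkn1c) of it in Control mice. For Ccnd1 this was 3.85% beside a coefficient of variation between Control mice of 6.18%, and for Cdkn1c 6.48% beside 12.9%. Part of their spread between Control mice is thus counting error. In BMAd-DTA mice the counting error was 3.30% beside 23.7% for Ccnd1 and 6.05% beside 24.7% for Cdkn1c. Levels are given as CPM, counts relative to the library size after TMM scaling. Adipocyte markers were lower in BMAd-DTA mice for 8 of 8 genes, with summed levels of 651 to 1345 CPM in Control and 242 to 871 CPM in BMAd-DTA mice. Osteoblast markers were higher for 8 of 8, at 1798 to 7610 against 9541 to 20670 CPM. Erythroid markers were lower for 6 of 6 tested, at 3323 to 6876 against 3532 to 5542 CPM. Chondrocyte markers were higher for 5 of 5 tested, at 413 to 682 against 739 to 913 CPM. B cell markers were higher for 8 of 8, at 398 to 900 against 632 to 1524 CPM, and T cell markers for 6 of 6, at 58.1 to 88.8 against 81.4 to 119 CPM. Lists of neutrophil, neutrophil precursor, stroma and endothelium markers had genes in both directions, and the groups overlapped. Neutrophil markers summed to 12449 to 16050 in Control against 10844 to 15985 CPM in BMAd-DTA mice, and precursor markers to 2872 to 4194 against 2730 to 4981. Stroma markers summed to 2892 to 4479 against 2842 to 4715 CPM, and endothelium markers to 446 to 507 against 388 to 496. No tested marker of these lists was at 0 in every library. Skeletal muscle markers ranged from 16.1 to 1321 CPM in Control and from 16.9 to 1042 CPM in BMAd-DTA mice, and the libraries of Control mouse 3 and BMAd-DTA mouse 6 stood apart at over 1000 CPM. In such bulk samples, fewer cells of a type and less RNA per cell cannot be told apart.

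Promoter sequences are shown for 3 members that behaved differently between the genotypes: Ccne1, which was lower in BMAd-DTA mice, Cdk4, whose group means were close together, and Cdkn1a, which was higher. Each sequence is the RefSeq window on GRCm38.p6 from 250 bases before to 50 bases after a start, printed 5′ to 3′ on the gene's strand, with capitals for GC boxes (GGGCGG) and E boxes (CACGTG) on either strand. Windows were found for 6 of the 10 members.
Ccne1, chr7:38107441-38107740, minus strand: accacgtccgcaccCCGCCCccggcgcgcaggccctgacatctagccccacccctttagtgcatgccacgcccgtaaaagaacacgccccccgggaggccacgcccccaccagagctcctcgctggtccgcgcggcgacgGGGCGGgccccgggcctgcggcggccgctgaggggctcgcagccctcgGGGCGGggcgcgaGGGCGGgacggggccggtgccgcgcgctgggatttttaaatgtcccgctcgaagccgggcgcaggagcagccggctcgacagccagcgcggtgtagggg
Cdk4, chr10:127063285-127063584, plus strand: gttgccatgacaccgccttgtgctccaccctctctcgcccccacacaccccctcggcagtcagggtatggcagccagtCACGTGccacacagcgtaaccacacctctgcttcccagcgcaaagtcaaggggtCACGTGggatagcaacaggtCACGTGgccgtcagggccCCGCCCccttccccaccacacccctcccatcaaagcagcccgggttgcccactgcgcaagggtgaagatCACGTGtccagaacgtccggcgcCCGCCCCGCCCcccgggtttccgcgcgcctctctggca
Cdkn1a, downstream start, chr17:29093519-29093818, plus strand: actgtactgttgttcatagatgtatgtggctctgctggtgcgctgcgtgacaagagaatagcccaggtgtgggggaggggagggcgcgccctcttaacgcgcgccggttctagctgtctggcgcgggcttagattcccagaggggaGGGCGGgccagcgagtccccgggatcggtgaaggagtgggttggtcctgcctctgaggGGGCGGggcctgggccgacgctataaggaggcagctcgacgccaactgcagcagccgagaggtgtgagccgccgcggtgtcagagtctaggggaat
The Ccne1 window held 4 GC boxes, the Cdk4 window held 3 GC boxes, the last pair overlapping, and 4 E boxes. The Cdkn1a window shown held 2 GC boxes, while that of its upstream start, not shown, held 0 GC boxes and 0 E boxes. A GC box was present in 35.7% of 32851 windows of all genes and in 70.1% of 87 windows of the S and G2/M phase genes used below. An E box was present in 7.15% and 6.9% of them. Searched on both strands, any of 4 words bound by E2F, the word TTCCCGC, the word TTCGCGC, the word TTGCCGC or the word TTGGCGC, occurred in 9.57% of all and 39.1% of the S and G2/M phase windows, and the cell cycle element TTTGAA occurred in 17.9% and 44.8%. Neither occurred in any of the 8 windows of the members. These are matches of letters in short windows and were not tested as binding sites.

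The members had log2 fold changes between -0.48 (Ccne1) and 0.47 (Cdkn1a) in BMAd-DTA over Control mice. By the quasi-likelihood test of edgeR, adjusted after Benjamini and Hochberg over 16496 genes, 0 of the 10 members had an adjusted p under 0.05, as did 0.0788% of all genes, 13 in number. At an unadjusted p under 0.05, 2 members, Ccnd1 and Cdkn1a, were higher, where 7.89% of all genes were, and 3, Ccnd3, Ccne1 and Ccne2, were lower, where 8.53% of all genes were. DESeq2 called 3 members at an adjusted p under 0.05, Cdkn1a higher and Ccne1 and Ccne2 lower, where it called 5.42% of all genes, 845 in number. The members' median log2 fold change was -0.083, with 4 higher and 6 lower, beside a median of 0.0018 over all genes.

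**Figure D1:**
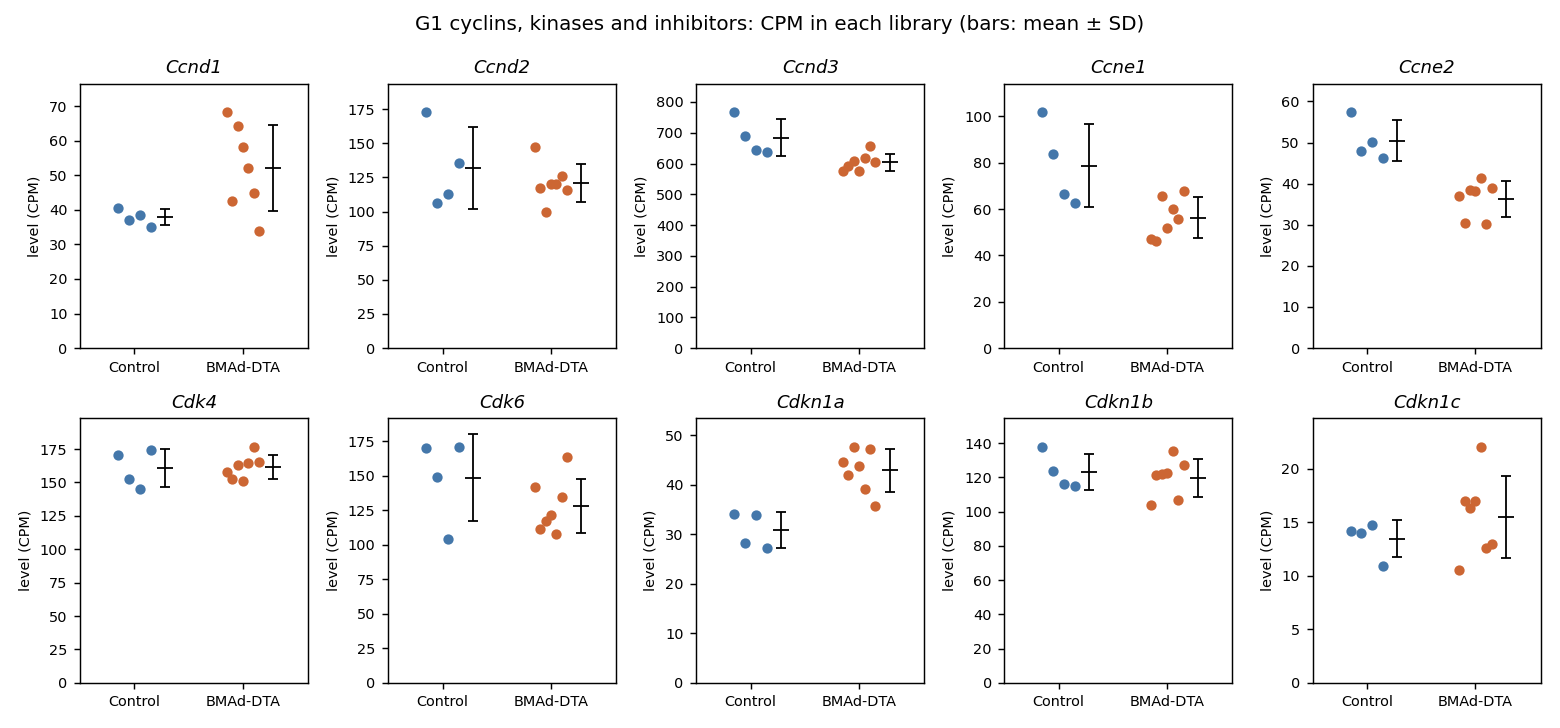
Level of each G1 gene in every library, in CPM from 0 on a linear axis that differs between panels. Points are mice (4 Control, 7 BMAd-DTA) and bars are the mean ± SD, and in Cdkn1a and Ccne2 the 2 genotypes do not overlap.

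Ccnd1 (chr7:144929931-144939925, minus strand, here and below on GRCm38 as annotated by GENCODE M21) encodes cyclin D1, the D cyclin of many mesenchymal and epithelial cells. Its levels in the 4 Control mice were 40.6, 37.0, 38.6 and 35.1 CPM. In BMAd-DTA mice they ranged from 33.9 to 68.3 CPM with a median of 52.2. Thus 6 of 7 BMAd-DTA mice lay above every Control mouse, while BMAd-DTA mouse 7 lay below all of them. The mean was 37.8 ± 2.34 CPM (SD, n = 4) in Control and 52.1 ± 12.4 CPM (SD, n = 7) in BMAd-DTA mice, so the spread was several times wider in the latter. The log2 fold change was 0.46 with a standard error of 0.16 (edgeR, adjusted p = 0.175), and an exact two-sided permutation test over the 330 splits of the mice gave p = 0.0545.

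Ccnd2 (chr6:127125162-127152193, minus strand) encodes cyclin D2, used in B cells and blood progenitors. Control levels were 172.9, 106.4, 112.8 and 135.3 CPM, and BMAd-DTA levels ranged from 99.97 to 147.2 CPM with a median of 119.9. Control mouse 1 stood above all other mice and the groups overlapped. This gave a log2 fold change of -0.13 with a standard error of 0.13 (edgeR, adjusted p = 0.681).

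Ccnd3 (chr17:47505051-47599691, plus strand) encodes cyclin D3. It measured 767.5, 688.0, 645.3 and 636.3 CPM in Control mice and 575.9 to 656.2 CPM, with a median of 603.4, in BMAd-DTA mice. All but 1 of the BMAd-DTA mice were under the lowest Control mouse, and BMAd-DTA mouse 6 was within the Control range. The difference was small, with a log2 fold change of -0.18 and a standard error of 0.067 (edgeR, adjusted p = 0.201). The exact two-sided permutation test gave p = 0.00909, unadjusted.

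The shares of the D cyclins are given as a description, with no test. Per kilobase of exon, the scale on which levels of different genes were compared, Ccnd3 was the highest at 78.0 ± 6.83 CPM per kb in Control mice (SD, n = 4), Ccnd2 measured 14.0 ± 3.19 and Ccnd1 8.03 ± 0.50. Ccnd1 made up 8.05% ± 0.51 of the summed D cyclin level per kb in Control and 11.9% ± 2.65 in BMAd-DTA mice, and 6 of 7 BMAd-DTA mice exceeded every Control mouse. The share of Ccnd3 was 78.0% ± 1.78 and 74.3% ± 3.10, and that of Ccnd2 13.9% ± 2.08 and 13.8% ± 1.44. Cyclin D3 transcripts were thus the bulk of D cyclin transcripts in both genotypes.

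The 2 E cyclins were lower in BMAd-DTA mice by a similar factor. Ccne1 (chr7:38097984-38107534, minus strand) encodes cyclin E1 and is the gene of the first promoter shown above. Its Control levels were 101.9, 84.0, 66.7 and 62.5 CPM, and its BMAd-DTA levels ranged from 46.0 to 68.0 CPM with a median of 55.7. The groups overlapped in 2 BMAd-DTA mice, and 5 of 7 lay below every Control mouse. The log2 fold change was -0.48 with a standard error of 0.14 (edgeR, adjusted p = 0.118; DESeq2, adjusted p = 0.0291).

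Ccne2 (chr4:11191351-11204779, plus strand) encodes cyclin E2, whose gene is an E2F target as well. Control levels were 57.4, 48.1, 50.2 and 46.3 CPM, and BMAd-DTA levels ranged from 30.1 to 41.3 CPM with a median of 38.2. All 7 BMAd-DTA mice lay below every Control mouse, as was so for 1.04% of all genes in this direction. The log2 fold change was -0.47 with a standard error of 0.097 (edgeR, adjusted p = 0.0675; DESeq2, adjusted p = 0.0014), and the gene ranked 67 by p among all genes. The exact two-sided permutation test gave p = 0.00303, unadjusted, the smallest it can give. Per kb, Ccne1 made up 66.8% ± 3.50 of the E cyclin level in Control and 66.9% ± 3.09 in BMAd-DTA mice.

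The kinase genes differed by less than the spread between mice. Cdk4 (chr10:127063534-127067920, plus strand) measured 170.5, 152.7, 145.2 and 174.5 CPM in Control mice and 150.9 to 176.7 CPM, with a median of 163.3, in BMAd-DTA mice. The groups covered nearly the same range. Its log2 fold change was 0.0082 with a standard error of 0.066 (edgeR, adjusted p = 0.971), and the sign was opposite with library totals alone as the scaling (-0.0049).

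Cdk6 (chr5:3341485-3531008, plus strand) was at 170.5, 149.2, 104.5 and 171.2 CPM in Control mice. In BMAd-DTA mice it ranged from 107.8 to 163.7 CPM with a median of 122.0. The lowest Control value was that of mouse 3, the muscle-rich library, and lay below every BMAd-DTA mouse. For Cdk6, the log2 fold change was -0.21 with a standard error of 0.14 (edgeR, adjusted p = 0.477), and -0.36 (edgeR, adjusted p = 0.153) without both muscle-rich libraries. Per kb, Cdk4 was the more abundant kinase transcript, at 49.5 ± 4.32 against 10.6 ± 2.24 CPM per kb in Control mice (SD, n = 4). It made up 82.4% ± 2.16 of the summed level of both kinases in Control and 84.5% ± 1.89 in BMAd-DTA mice.

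Cdkn1a (chr17:29090976-29100727, plus strand) encodes p21, a CDK inhibitor and a well-known target of p53. Its levels were 34.1, 28.3, 34.0 and 27.2 CPM in Control mice and 35.8 to 47.7 CPM, with a median of 43.8, in BMAd-DTA mice. All 7 BMAd-DTA mice lay above every Control mouse, as was so for 1.78% of all genes in this direction, and the lowest of them was again mouse 7. The means were 30.9 ± 3.67 CPM (SD, n = 4) and 42.9 ± 4.30 CPM (SD, n = 7). The log2 fold change was 0.47 with a standard error of 0.097 (edgeR, adjusted p = 0.0675; DESeq2, adjusted p = 0.00121), with an unadjusted exact two-sided permutation p of 0.00303, and the gene ranked 69 by p. Without the muscle-rich Control mouse 3, Cdkn1a alone of the 10 members passed in edgeR's quasi-likelihood test (adjusted p = 0.0397). In that fit 292 of all genes were called, in place of 13 with all mice. Cdkn1a did not pass with any other single mouse left out (edgeR, adjusted p = 0.0572 to 0.180). Without both muscle-rich libraries its log2 fold change was 0.50 (edgeR, adjusted p = 0.0627).

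Cdkn1b (chr6:134920401-134925513, plus strand) encodes p27, an inhibitor regulated largely through the stability of its protein. It measured 137.9, 123.8, 116.0 and 114.9 CPM in Control mice and 104.1 to 135.2 CPM, with a median of 122.0, in BMAd-DTA mice. The groups overlapped over most of their range. Its log2 fold change was -0.040 with a standard error of 0.079 (edgeR, adjusted p = 0.853).

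Cdkn1c (chr7:143458339-143461050, minus strand) encodes p57 and is expressed from the maternal chromosome. It was the lowest member, at 14.2, 14.0, 14.7 and 10.9 CPM in Control mice and 10.5 to 22.04 CPM, with a median of 16.3, in BMAd-DTA mice. BMAd-DTA mice lay on both sides of the Control mice, 4 above all of them and 1 below. A log2 fold change of 0.20 was found, with a standard error of 0.18 (edgeR, adjusted p = 0.623).

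Within the CIP/KIP family, Cdkn1b was the most abundant per kb in both genotypes. Cdkn1a made up 20.5% ± 1.54 of the summed level per kb in Control and 26.4% ± 3.74 in BMAd-DTA mice, and 6 of 7 BMAd-DTA shares exceeded the highest Control share. Cdkn1b made up 63.9% ± 2.501 and 57.3% ± 2.69, and 6 of 7 BMAd-DTA shares were under the lowest Control share, while Cdkn1c made up 15.6% ± 1.39 and 16.3% ± 2.78. Over all members, the order per kb in Control mice was Ccnd3, Cdk4, Ccne1, Cdkn1b, Ccne2, Ccnd2, Cdk6, Cdkn1a, Ccnd1 and Cdkn1c. Their mean levels there were 78.0, 49.5, 29.6, 27.1, 14.4, 14.0, 10.6, 8.70, 8.03 and 6.59 CPM per kb. The Control ranges of Ccne1 and Cdkn1b overlapped, as did those of Ccne2 with Ccnd2, of Ccnd2 with Cdk6, of Cdk6 with Cdkn1a and of Cdkn1a with Ccnd1. Both genes of a pair were measured in the same mice, so overlapping ranges do not show that their levels were alike. Within single mice, Ccnd2 was above Cdk6 in all 4 Control and all 7 BMAd-DTA mice. Cdkn1a was above Ccnd1 in all 4 Control but 3 of 7 BMAd-DTA mice. The other overlapping neighbours changed order between mice. Ccne1 was above Cdkn1b in 2 of 4 Control and 0 of 7 BMAd-DTA mice. Ccne2 was above Ccnd2 in 2 of 4 and 1 of 7, and Cdk6 above Cdkn1a in 3 of 4 and 1 of 7.

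The general decrease against which the members were read was seen in a list of 97 S and G2/M phase genes, the genes of DNA replication and mitosis. Of these, 96 had a lower level in BMAd-DTA mice, the exception being Pimreg, and the median log2 fold change was -0.30, where 49.6% of all genes were lower. None passed in edgeR's quasi-likelihood test at an adjusted p under 0.05. At an unadjusted p under 0.05, 78 were lower, where 8.53% of all genes were. DESeq2, which called 5.42% of all genes, called 44 of the 97, all lower. A cell cycle score was computed for each mouse as the mean log2 CPM of 96 of these genes, leaving out Ccne2, which is also a member. It was 6.42 ± 0.16 in Control (SD, n = 4) and 6.14 ± 0.099 in BMAd-DTA mice (SD, n = 7), a difference of -0.28 (exact two-sided permutation test, p = 0.00606). For 6 of 7 BMAd-DTA mice the score was under the lowest Control score. Control mouse 1 had the highest score, 6.63, and also the highest erythroid and the lowest osteoblast marker level.

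**Figure D2:**
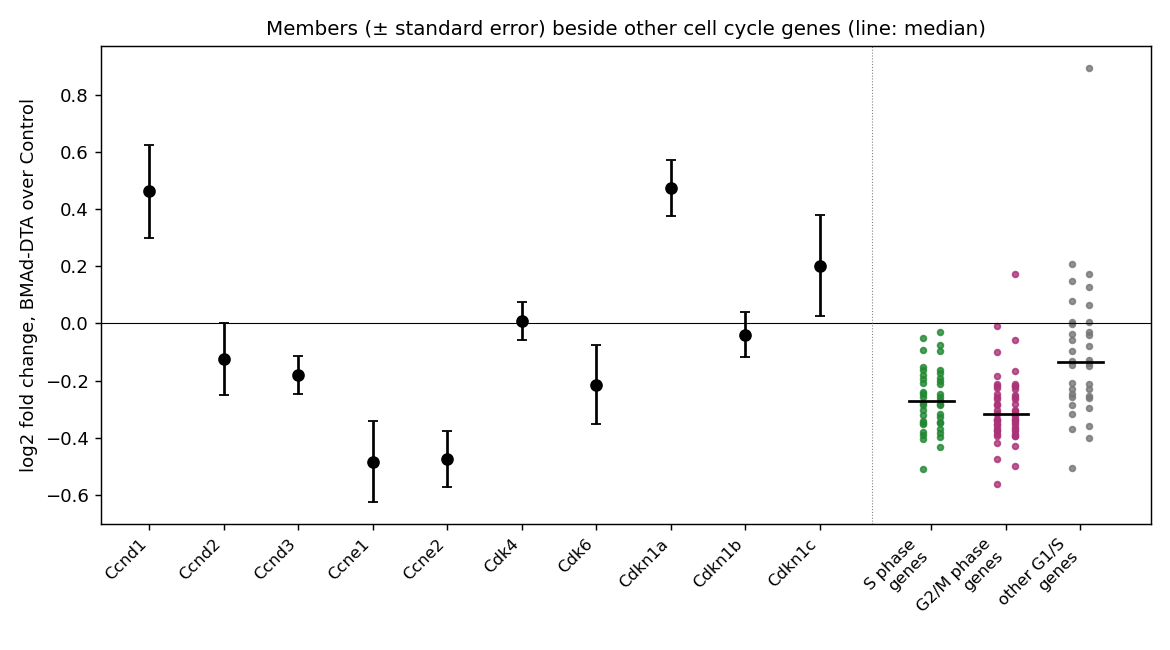
Log2 fold change of BMAd-DTA over Control for each G1 gene (points, with the standard error of edgeR's fit) beside the S phase, G2/M phase and other G1/S genes (1 point per gene, line at the median). The E cyclins lie at or below the bulk of the S and G2/M genes, and Ccnd1 and Cdkn1a lie above all of them.

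To ask which members went against this decrease, the score of each mouse was subtracted from its log2 CPM, for every gene. On this scale a gene whose CPM does not differ has a difference of 0.28 upwards, so that a member is called higher when it did not follow the S and G2/M phase genes. By limma with Benjamini-Hochberg adjustment over all genes, 3 of the 10 members were called higher and 0 lower, where 20.2% of all genes were called higher and 0.152% lower. The share of members was therefore not far from the share of all genes.

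Cdkn1a had the largest difference. Relative to the score it stood at -1.53, -1.59, -1.16 and -1.60 log2 units in Control mice and between -1.08 and -0.55, with a median of -0.61, in BMAd-DTA mice. The groups did not overlap, as was so in CPM. The share of all genes without overlap on this scale was not counted. The difference was 0.75 with a standard error of 0.13 (limma, adjusted p = 0.0149).

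Ccnd1 stood at -1.28, -1.20, -0.97 and -1.23 log2 units in Control mice and between -1.15 and -0.011, with a median of -0.56, in BMAd-DTA mice. BMAd-DTA mouse 7 was within the Control range and the other 6 above it. The difference was 0.70 with a standard error of 0.18 (limma, adjusted p = 0.0279).

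Cdk4 stood at 0.79, 0.84, 0.93 and 1.08 log2 units in Control mice and between 1.10 and 1.30, with a median of 1.20, in BMAd-DTA mice. Its groups did not overlap either on this scale, for which the share of all genes was not counted, while in CPM they covered nearly the same range. The difference of 0.29 with a standard error of 0.077 (limma, adjusted p = 0.0295) was almost all due to the score, since the CPM of Cdk4 differed by a log2 value of 0.0082.

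None of the other 7 members had an adjusted p under 0.05 on this scale. Cdkn1c and Cdkn1b had differences of 0.45 (limma, unadjusted p = 0.0284, adjusted p = 0.0824) and 0.24 (limma, unadjusted p = 0.0136, adjusted p = 0.0567). Ccnd2, Ccnd3 and Cdk6 had differences of 0.17, 0.10 and 0.079, and Ccne1 and Ccne2 of -0.19 and -0.20, that is, slightly further down than the score, with limma adjusted p values between 0.134 and 0.628. The calls for Ccnd1 and Cdk4 were lost in some fits while their differences changed little, and the share of all genes called, in either direction, changed as well. Cdkn1a was the 1 member called without Control mouse 1, when 0.394% of all genes were called, without Control mouse 2 (1.08%), without BMAd-DTA mouse 4 (3.31%) and with the muscle score as a covariate (5.01%). In the fits without these 3 mice, the difference of Ccnd1 was 0.67, 0.69 and 0.66 and that of Cdk4 0.25, 0.27 and 0.29. Cdk4 also missed the threshold without BMAd-DTA mouse 2 (limma, adjusted p = 0.0548) or BMAd-DTA mouse 3 (limma, adjusted p = 0.0525). Ccnd1 was called in 15 of 19 alternatives, Cdk4 in 13, Cdkn1b in 4 and Cdkn1c in 2. Without both muscle-rich libraries 5 members were called, adding Cdkn1b and Cdkn1c, when 29.3% of all genes were called. Cdkn1a was called in all 19 alternatives, with differences from 0.71 to 0.86.

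**Figure D3:**
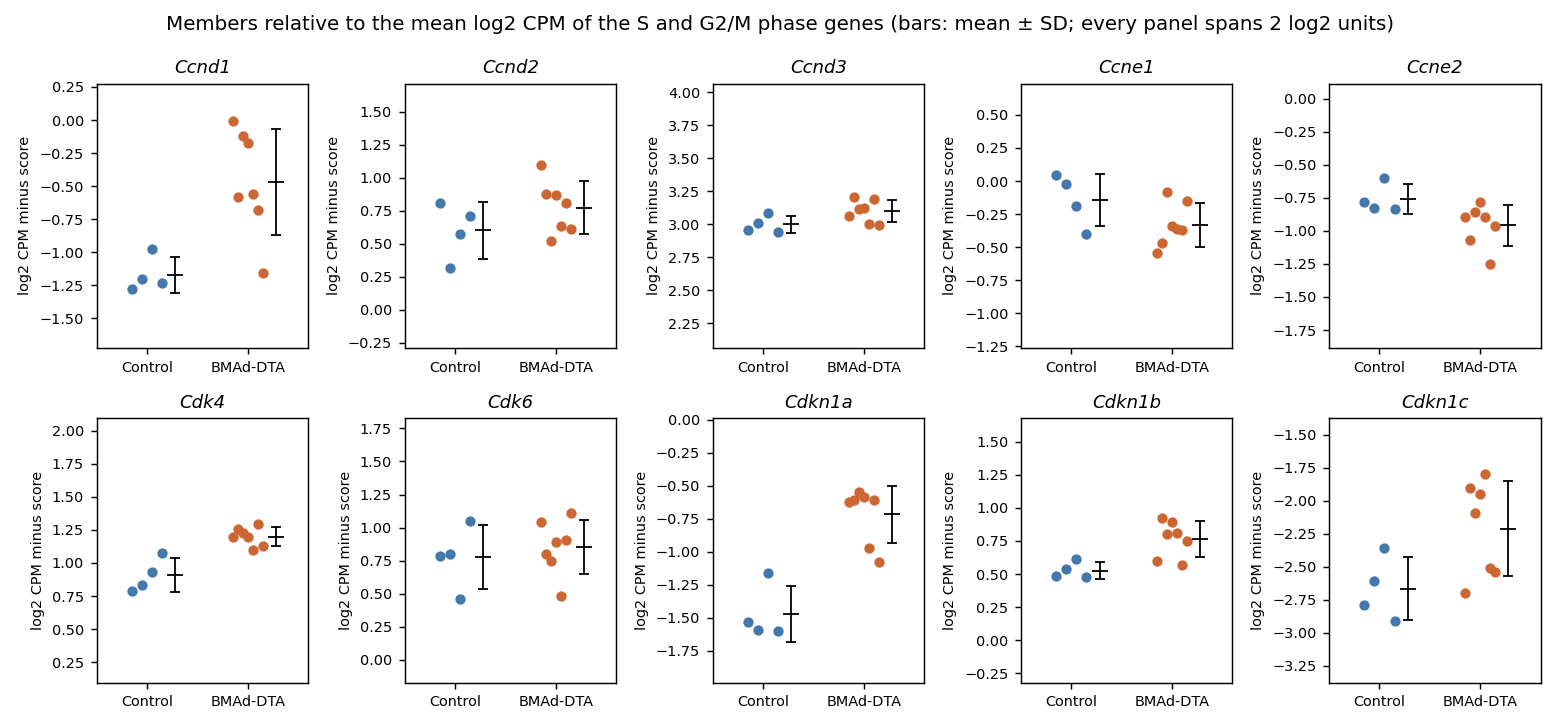
Log2 CPM of each G1 gene minus the cell cycle score of the same mouse, with mean ± SD, in panels that all span 2 log2 units. For Cdkn1a and Cdk4 every BMAd-DTA mouse lies above every Control mouse, and for Ccnd1 6 of 7 do. How many of all genes are separated on this scale was not counted. In CPM the genotypes overlap for Cdk4.

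Within genotypes the members also varied unequally with the score. The group means were subtracted and Pearson's r was taken over the 11 mice as a description, with Spearman's rho beside it, since all values of a mouse share its library and scaling. Ccne1 (r = 0.81, rho = 0.77), Ccnd3 (r = 0.77, rho = 0.84) and Cdk4 (r = 0.66, rho = 0.68) went up and down with the score. Ccnd1 (r = -0.13, rho = -0.018), Cdkn1a (r = -0.16, rho = -0.082) and Cdkn1c (r = 0.073, rho = -0.14) did not. The remaining members lay between (r = 0.45 to 0.57, rho = 0.25 to 0.55). Ccnd1 and Cdkn1a varied with one another (r = 0.61, rho = 0.57). Ccnd3 with Ccne1 (r = 0.74, rho = 0.74) and Cdkn1b with Cdkn1c (r = 0.74, rho = 0.65) did so more closely. Cdk6 and Cdkn1c varied in opposite directions (r = -0.66, rho = -0.78). Of 12963 other genes, those nearest in pattern to Ccne1 were E2f8, which encodes an E2F repressor (r = 0.945, rho = 0.936), and Tab3 (r = 0.935, rho = 0.9). Nearest to Ccnd3 were Gata1, the erythroid transcription factor (r = 0.946, rho = 0.927), and Reep4 (r = 0.933, rho = 0.873).

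The nearest to Cdkn1a were Cdipt (r = 0.950, rho = 0.964) and 2610507I01Rik (r = 0.926, rho = 0.9), and to Ccnd1 Aldh4a1 (r = 0.915, rho = 0.809) and Il17rc (r = 0.902, rho = 0.9). Those of the remaining members were Mvd and Tapbp for Ccnd2, Ikzf5 and Ccdc82 for Ccne2, Mogs and Trim28 for Cdk4, Rtn3 and Ntmt1 for Cdk6, Sh2d4a and Sec14l2 for Cdkn1b, and Btg3 and Asf1a for Cdkn1c. Among so many candidates and 11 mice, a high r is found for every member.

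Marker levels of some other cells differed between the groups, those of erythroid markers with overlap. In the fit with the erythroid marker score as a covariate, the log2 fold change of Ccne1 was -0.22 in place of -0.48, of Ccnd3 -0.10 in place of -0.18 and of Ccne2 -0.34 in place of -0.47, while that of Cdkn1a was 0.50 and of Ccnd1 0.49. With the osteoblast score they were -0.14 for Ccne1, -0.032 for Ccnd3, -0.31 for Ccne2, 0.44 for Cdkn1a and 0.37 for Ccnd1. With the chondrocyte score they were -0.065 for Ccne1, -0.052 for Ccnd3, -0.27 for Ccne2, 0.51 for Cdkn1a and 0.50 for Ccnd1. The log2 fold change of Cdkn1c, 0.20 with no covariate, was 0.47 with the erythroid, 0.12 with the osteoblast and 0.17 with the chondrocyte score. Of the 97 S and G2/M phase genes, 92, 58 and 78 were lower with these scores, in place of 96. The groups did not overlap in the summed level of osteoblast or of chondrocyte markers, so that those levels and the genotype cannot be told apart. No gene passed in these 3 fits (edgeR), and the standard error of Cdkn1a was 0.13, 0.17 and 0.18 in place of 0.097. Within genotypes, Pearson's r with the erythroid, osteoblast and chondrocyte scores was 0.13, 0.079 and -0.091 for Cdkn1a. For Ccnd1 it was 0.082, 0.14 and -0.0079, so these covariates had little room to move either log2 fold change. Cdkn1a and Ccnd1 varied more with the endothelium (r = 0.59 and 0.67) and B cell scores (r = -0.54 and -0.62). Those scores were not used as covariates.

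The rest of the G1/S network was lower by a smaller median than the S and G2/M phase genes. Of 36 network genes tested, 9 were higher and 27 (75%) lower, where 49.6% of all genes were lower. The median log2 fold change of the network genes was -0.14, and E2f8 and Cks1b among them are also S and G2/M phase genes. None passed in edgeR's quasi-likelihood test. At an unadjusted p under 0.05, 12 were lower and 1 higher, where 8.53% and 7.89% of all genes were. DESeq2, which called 5.42% of all genes, called 4 network genes, all lower. Those 4 were Tfdp2, a partner of E2F proteins (log2 fold change -0.51), Fbxo5, an inhibitor of the anaphase-promoting complex (-0.40), Ccna2, the cyclin of S phase and G2 (-0.37), and E2f8 (-0.32). The fourth smallest value was that of E2f4, an E2F that acts mostly as a repressor (-0.36). The 4 with the largest values were Cdkn2b, which encodes the INK4 inhibitor p15 (0.89), E2f5 (0.21), Fbxo4, an F-box protein (0.17), and Foxo1, a transcription factor restrained by insulin and growth factor signalling (0.15). Cdkn2b was barely detected, at 0.46 ± 0.094 CPM in Control (SD, n = 4) and 0.87 ± 0.32 CPM in BMAd-DTA mice (SD, n = 7), with an adjusted p of 0.236 (edgeR).

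By role, 9 of 10 genes of E2F and its partners were lower (median -0.26), as were 5 of 6 genes of other cyclins, kinases and activators of G1/S (-0.11), 3 of 4 INK4 inhibitors (-0.13), 2 of 3 pocket proteins (-0.25), 5 of 9 genes of protein degradation (-0.041) and 3 of 4 upstream regulators (-0.11). The pocket proteins, which hold E2F back, were lower for Rbl1 (-0.25) and Rb1 (-0.25) and not for Rbl2 (0.065), and none of these passed in edgeR. Cdk2, the kinase that cyclin E binds, had a log2 fold change of -0.039 (edgeR, adjusted p = 0.815).

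Other targets of p53 had no common direction beside Cdkn1a. Of 17 such genes, 8 were higher and 9 lower, and the median log2 fold change was -0.019. At an unadjusted p under 0.05, 1 was higher and 2 were lower, where 7.89% and 8.53% of all genes were. None passed in edgeR or DESeq2. The higher one was Gdf15 (0.78), a secreted stress factor at 3.09 ± 1.34 CPM in Control (SD, n = 4) and 5.33 ± 1.85 CPM in BMAd-DTA mice (SD, n = 7). The 2 lower ones were Sesn2 (-0.31), at means of 40.4 and 32.6 CPM, and Aen (-0.26), at 20.4 and 17.1 CPM. The values were -0.032 for Mdm2, the ubiquitin ligase of p53, and -0.11 for Ccng1. Trp53 itself had a log2 fold change of -0.0018. For comparison, the reference genes Hprt and Rpl32 had values of -0.00029 and 0.048.

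Leaving out 1 mouse at a time did not turn the direction of Ccnd1, Ccnd3, Ccne1, Ccne2, Cdk6, Cdkn1a or Cdkn1c. That of Cdkn1a stayed between 0.41 and 0.52, that of Ccnd1 between 0.38 and 0.54, that of Ccne2 between -0.51 and -0.41, and that of Ccne1 between -0.58 and -0.33. The decreases were smallest without Control mouse 1, when the values were -0.33 for Ccne1, -0.41 for Ccne2 and -0.12 for Ccnd3.

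**Figure D4:**
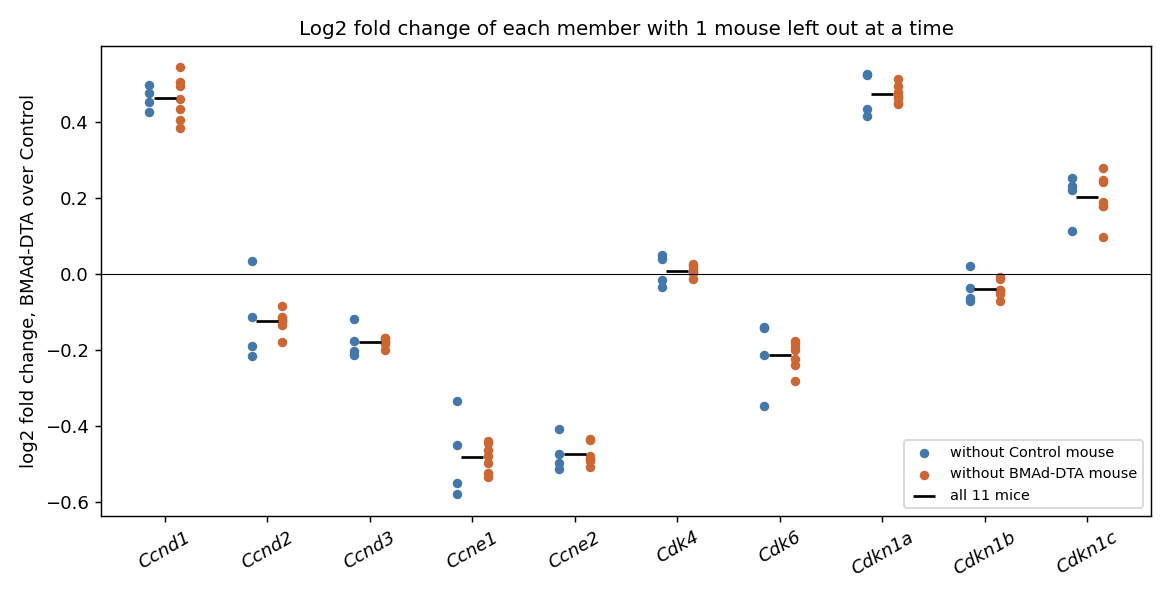
Log2 fold change of each G1 gene with all 11 mice (line) and with 1 Control or 1 BMAd-DTA mouse left out at a time (points). Ccnd2, Cdk4 and Cdkn1b cross 0, and Cdkn1a stays between 0.41 and 0.52.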

How the data were processed

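RNA of distal tibiae was sequenced by the authors as strand-specific paired-end libraries. They checked reads with FastQC 0.11.9, mapped them with STAR to mm10 and deposited unnormalized counts of read pairs per gene, with genotype as the main effect of their own DESeq2 analysis. The annotation release is not given in the sources used here. The merged table equals the column for the strand of the second read in the counts of each library for its 22600 of 55401 genes. Unmapped, multimapping, unassigned and ambiguous pairs, 26.3% to 32.3% of a library, were left out. Multimapping pairs are uncounted, so genes with near copies are less certain.

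The test of the counts was that of edgeR 4.0.16 under R 4.3.3 (filterByExpr, TMM, quasi-likelihood test, genotype only, two-sided, Benjamini-Hochberg over 16496 genes, adjusted p under 0.05). Standard errors were taken from the log2 fold change and the F statistic. Log2 CPM minus the cell cycle score, with a prior count of 2, was tested with limma 3.58.1 with a mean-variance trend. Permutation tests covered all 330 splits of 4 and 7 mice, with a smallest p of 0.00303, and are unadjusted. CPM per kb used the union of exons of GENCODE M21. The edgeR test and the test relative to the cell cycle score were tried on simulated data, and the other steps were not. The lowest chi-square per gene between libraries of a group was 16.7, so no library was a copy. Xist had 13810 to 20260 counts in every library and 4 Y-linked genes together at most 1, the pattern of female mice. The labels give no sex, and the study describes male mice where it presents this RNA-Seq. In these libraries the counts were thus those of female mice, and why the study describes males is not known here.

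Named were all members, 4 network genes at each end of the log2 fold changes, and for each member the 2 genes nearest in pattern with a mean of at least 50 counts. Cdk2, the pocket proteins, Pimreg, Cks1b and the p53 targets were named after their values were seen. The members and lists were chosen with earlier results of these data known. Myc, Ahsp and Klf1 were not analysed here. Alternatives were DESeq2 1.42.0, limma-voom, a robust fit, other scalings, filters and count tables, removal of 26 globin and mitochondrial genes, as covariate either a score of muscle markers or, by sva 3.50.0, 1 surrogate variable, and each mouse left out. For the score, they were S or G2/M genes alone, the median, other prior counts and a filter. Chosen after seeing the data were the likelihood ratio test, the fit without 2 muscle-rich libraries, and erythroid, osteoblast and chondrocyte covariates.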

Additional observations from a re-analysis of the deposited data

How the results depend on the processing

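Over 28 alternatives, Ccnd1, Ccnd3, Ccne1, Ccne2, Cdkn1a and Cdkn1c kept their direction. Of all genes, 13 were called in the edgeR quasi-likelihood test (2708 at an unadjusted p under 0.05), 845 by DESeq2, 450 by the likelihood ratio test, 32 by the robust fit, 20 by limma-voom, 20 with DESeq2's size factors, 3 with the muscle score, 3 with 1 surrogate variable, 1 without both muscle-rich libraries and 0 with the erythroid, osteoblast or chondrocyte score. With 1 mouse left out, 0 to 292 were called, the most without Control mouse 3 and 0 without Control mouse 1, Control mouse 2, BMAd-DTA mouse 1 or BMAd-DTA mouse 6. Members called numbered 3 by DESeq2, 2 by the likelihood ratio test and 0 to 1 with a mouse left out. Network genes called numbered 4 by DESeq2, 1 by the likelihood ratio test and 0 to 1 with a mouse left out. S and G2/M phase genes that were lower numbered 58 with the osteoblast, 78 with the chondrocyte and 92 with the erythroid score, and 93 to 96 with a mouse left out. Members called relative to the cell cycle score numbered 1 with the muscle score, 5 without both muscle-rich libraries and 1 to 5 with a mouse left out, when 5.01%, 29.3% and 0.394% (without Control mouse 1) to 34% (without Control mouse 3) of all genes were called. Where neither fewer samples nor fewer genes account for these moves, the cause was not tested.

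The sign turned for Cdk4 with library totals (-0.0049), without Control mouse 2 (-0.016), without Control mouse 3 (-0.034), without BMAd-DTA mouse 6 (-0.014), without both muscle-rich libraries (-0.055) and with the erythroid score (-0.012). It turned for Ccnd2 without Control mouse 1 (0.032) and with the osteoblast (0.33) and chondrocyte (0.29) scores. It turned for Cdkn1b without Control mouse 1 (0.019) and with the erythroid (0.081), osteoblast (0.084) and chondrocyte (0.15) scores, and for Cdk6 with the osteoblast (0.21) and chondrocyte (0.12) scores. Other scalings placed the median log2 fold change of all genes between -0.010 and 0.015. With a mouse left out, the log2 fold changes ranged from -0.22 to 0.032 for Ccnd2, from -0.034 to 0.050 for Cdk4 and from -0.072 to 0.019 for Cdkn1b. No paired analysis was possible because the replicate numbers follow accession order and pair no mice. The number of Control mice, 4, limits the precision. For Ccnd1 and Cdkn1c so does the spread between BMAd-DTA mice, with coefficients of variation of 23.7% and 24.7% beside counting errors of 3.30% and 6.05%. Counting error was a larger part of their spread between Control mice.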
